A study of Mus musculus with 16 samples.

Results

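GEM was added to agonist anti-CD40 Ab in mice bearing PDA30364 tumors, and the RNA of 4 GEM/anti-CD40 tumors was compared with that of 4 tumors given anti-CD40 Ab and vehicle. These 8 arrays were taken by their treatment labels from a series of 16 arrays, in which 4 further tumors received GEM with isotype control Ab and 4 received vehicle with isotype control Ab (control). All tumors grew from 1 cell line, which was derived from a mouse pancreatic tumor and was injected under the skin of the flank in PBS and Matrigel into C57BL/6-Ly5.1 mice aged 6 to 12 weeks. The GEM dose was 120 mg/kg, injected on days 1, 5 and 12 of treatment. Injections of the anti-CD40 Ab, of the mIgG1 isotype, fell on treatment days 3, 4, 6 and 14. Tumors were taken on day 22 or 23 after inoculation and snap frozen. The paper states that RNA was isolated from pieces of the tumors. The RNA of a tumor mixes its cancer cells with immune, vascular and connective tissue cells, so that fewer cells of a type cannot be told apart from less RNA per cell. The model is a subcutaneous graft and not a tumor within the pancreas, and it was measured at a single late time.

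GEM (gemcitabine) is a nucleoside analog that is phosphorylated in the cell by deoxycytidine kinase, is built into DNA and blocks its synthesis, and inhibits ribonucleotide reductase, which supplies deoxynucleotides. CD40 is a receptor of the TNF receptor family on dendritic cells, macrophages and B cells. Its engagement activates NF-kB, including the noncanonical branch through Nfkb2 and Relb, and raises costimulatory molecules and cytokines that license T cell priming. The comparison of GEM/anti-CD40 with anti-CD40 tumors asks what GEM changes in a tumor that already receives the Ab.

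The 8 arrays correlated with one another at r of 0.986 to 0.997 over the probe sets, and their medians lay between 5.60 and 5.66 on the log2 scale of the RMA values. Tumor epithelium was present in all 8, with Krt8 between 13.52 and 13.77 and Cdh1 between 12.23 and 12.65, whereas B cell markers were dim (Ms4a1 at 4.11 to 4.92 and Cd79a at 4.60 to 5.05). Genes of tissues next to the graft stood apart in 1 array of each group. The mean of 17 skeletal muscle genes was 11.69 in GEM/anti-CD40 replicate 4, against 5.11 to 5.94 in the other GEM/anti-CD40 tumors and 4.80 to 5.98 in the anti-CD40 tumors. The mean of 16 skin keratinocyte genes was 4.97 to 5.09 in the GEM/anti-CD40 tumors and 6.40 in anti-CD40 replicate 2, against 4.92 to 5.09 in the other anti-CD40 tumors. Muscle and skin genes were therefore not read as responses. Values without both arrays are given for some genes and lists only, and those of other genes may change as well.

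No probe set passed an adjusted p under 0.05 (0 of 45037, 0% called, limma with Benjamini-Hochberg adjustment), and the smallest adjusted p was 0.937. At an unadjusted p under 0.05 stood 2072 probe sets (4.6%, where 5% is what uniform p-values would give), of which 770 were higher and 1302 lower in GEM/anti-CD40 tumors. This split depended on scaling and on which probe sets were counted. Of those at an unadjusted p under 0.05, 62.8% were lower in the values as deposited and 80.2% (1790 against 442 higher) after each array was scaled to its 75th percentile. Without the probe sets below the median intensity 49.4% were lower (478 against 489 higher), and among genes read from their brightest probe set 39.1% were lower (256 against 399 higher). All genes named hereafter had an adjusted p of 0.937 to 0.997, so that each is given as a difference between 4 and 4 tumors that did not pass the test.

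The data still bound what GEM added. Across 18193 genes, each read from its brightest probe set, the 95% interval of the difference had a median half-width of 0.20 on the log2 scale, and it lay within a 2-fold change in either direction for 17401 genes (95.6%). The count includes dim genes. Of the 11791 genes with a group mean above the array median, 11171 lay within that bound. A difference of over 1 on the log2 scale was measured for 104 genes, 99 higher and 5 lower, and for 66 genes, 52 higher and 14 lower, without the arrays that held muscle or skin genes. The groups did not overlap, with all 4 GEM/anti-CD40 tumors above all 4 anti-CD40 tumors, for 238 genes (1.31%), and the reverse held for 174 genes (0.956%). These 2 shares are the background for the gene lists below, and the median difference over all genes was 0.01 (9480 above and 8713 below 0).

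Among the 412 genes whose groups did not overlap, the 4 largest differences were those of granzymes Gzmd, Gzmg, Gzmc and Gzmf of the cluster on chromosome 14. Granzymes are serine proteases of the granules of cytotoxic T cells and NK cells, and mice carry, beside Gzmb, the genes Gzmc to Gzmg, which are known from activated killer cells. The RefSeq promoters of 4 of them (assembly GRCm38.p6, from 250 bases before to 50 bases after the start of the gene, 5′ to 3′ on the minus strand) are printed because these genes stood together in the tumors. Capitals mark the longest run common to the promoters of Gzmc, Gzmd, Gzme, Gzmf and Gzmg, which was 20 bases long.
Gzmc, chr14:56234608-56234907, minus strand: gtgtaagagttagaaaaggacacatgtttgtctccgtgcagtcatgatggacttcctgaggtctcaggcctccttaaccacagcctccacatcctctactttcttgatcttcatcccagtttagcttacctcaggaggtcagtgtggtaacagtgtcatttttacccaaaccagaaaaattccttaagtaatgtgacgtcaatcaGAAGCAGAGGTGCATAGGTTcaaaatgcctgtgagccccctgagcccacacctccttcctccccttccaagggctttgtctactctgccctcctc
Gzmd, chr14:56132544-56132843, minus strand: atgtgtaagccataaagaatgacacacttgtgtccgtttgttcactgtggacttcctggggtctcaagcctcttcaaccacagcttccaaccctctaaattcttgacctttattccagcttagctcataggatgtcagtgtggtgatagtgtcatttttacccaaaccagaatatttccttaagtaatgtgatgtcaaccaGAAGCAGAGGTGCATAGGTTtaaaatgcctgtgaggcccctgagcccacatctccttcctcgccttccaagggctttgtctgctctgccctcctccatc
Gzmf, chr14:56211358-56211657, minus strand: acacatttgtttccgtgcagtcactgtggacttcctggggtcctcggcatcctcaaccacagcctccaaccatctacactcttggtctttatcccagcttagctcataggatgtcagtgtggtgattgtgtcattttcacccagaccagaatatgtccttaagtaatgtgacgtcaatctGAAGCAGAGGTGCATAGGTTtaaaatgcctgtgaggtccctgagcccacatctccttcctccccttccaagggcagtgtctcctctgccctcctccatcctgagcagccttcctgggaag
Gzmg, chr14:56159530-56159829, minus strand: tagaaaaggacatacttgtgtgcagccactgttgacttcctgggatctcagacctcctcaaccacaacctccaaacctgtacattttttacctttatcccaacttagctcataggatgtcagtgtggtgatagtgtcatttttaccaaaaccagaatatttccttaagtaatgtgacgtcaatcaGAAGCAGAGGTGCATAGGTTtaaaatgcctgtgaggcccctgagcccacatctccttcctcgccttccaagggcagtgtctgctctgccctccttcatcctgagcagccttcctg

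Between the 5 promoters, pairwise identity was 86.1% to 94% over 10 pairs. Counted from the start of the gene, the shared run begins at position -45 in Gzmc, -49 in Gzmd, -70 in Gzmf and -65 in Gzmg. On either strand it was found in 5 of 32851 promoter windows of the RefSeq table (0.0152%), all of them those of Gzmc to Gzmg, and in 0 of the 6 windows of the other granzyme genes searched (Gzma, Gzmb, Gzmk, Gzmm and Gzmn). The match describes the letters and is not evidence of a binding site. The transcripts of the 5 genes are similar as well, so that a probe set of one may pick up RNA of another, and the 4 genes are best read as 1 family signal.

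Gzmc had values of 7.80, 8.80, 7.70 and 7.96 in GEM/anti-CD40 tumors 1 to 4, against 5.37, 6.28, 6.52 and 5.49 in anti-CD40 tumors 1 to 4. The groups lay more than 1 log2 unit apart at their nearest values. The difference was 2.15 ± 0.31 (SE, n = 4 each, 95% interval 1.44 to 2.86), which is a 4.44-fold higher mean. Gzmd had 8.59, 10.07, 9.03 and 8.63 in GEM/anti-CD40 tumors, against 5.36, 7.45, 7.82 and 6.28 in anti-CD40 tumors (difference 2.35 ± 0.54, 1.13 to 3.57). Again no anti-CD40 tumor reached the lowest GEM/anti-CD40 tumor, and a second probe set of Gzmd gave 2.38.

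Gzmf had 8.03, 9.46, 8.55 and 7.69 in GEM/anti-CD40 tumors, against 5.29, 6.93, 7.33 and 5.78 in anti-CD40 tumors (2.10 ± 0.50). Gzmg had 8.21, 9.85, 8.50 and 8.23 in GEM/anti-CD40 tumors, against 4.92, 7.14, 7.37 and 6.07 in anti-CD40 tumors (2.32 ± 0.56). In all 4 genes GEM/anti-CD40 tumor 2 was the highest and anti-CD40 tumor 1 the lowest of the 8, and neither group overlapped the other. Leaving out any 1 of the 8 arrays kept the difference between 1.91 and 2.35 for Gzmc, 1.90 and 2.72 for Gzmd, 1.75 and 2.43 for Gzmf, and 1.84 and 2.65 for Gzmg. Gzme, chosen after its values were seen, differed by 1.17 with overlapping groups.

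**Figure D1:**
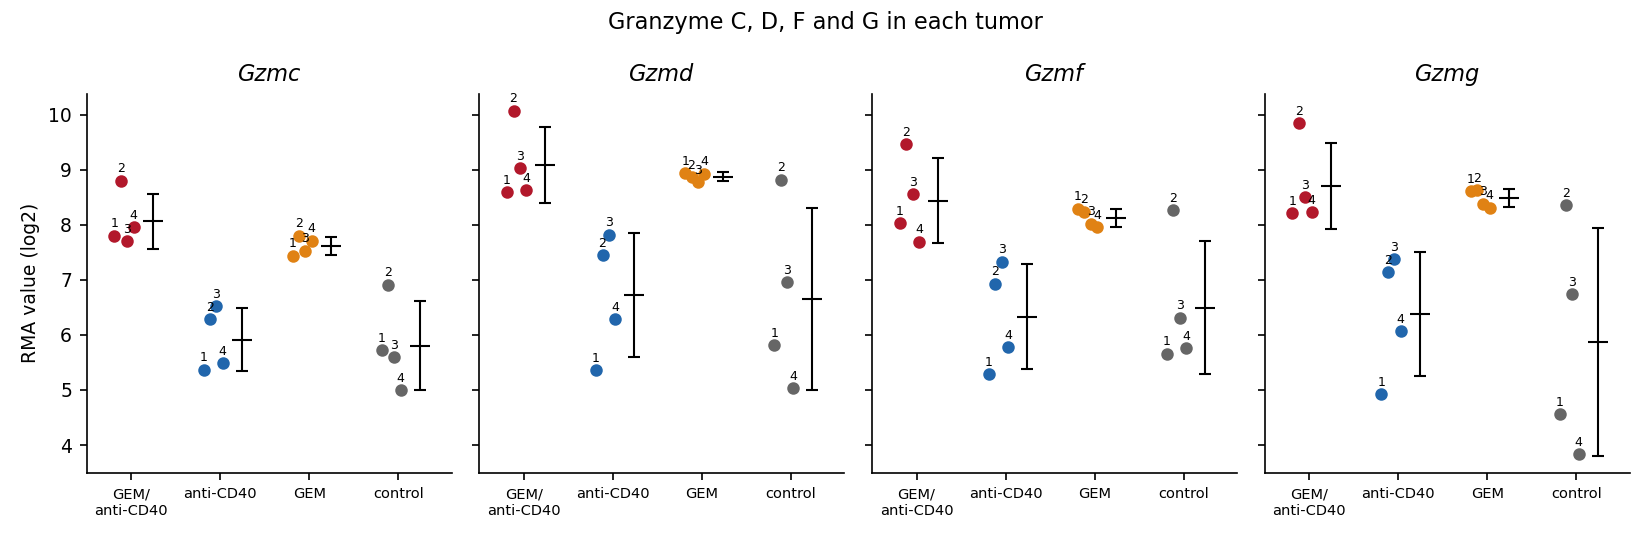
RMA values (log2) of Gzmc, Gzmd, Gzmf and Gzmg in each of the 16 tumors, 1 panel per gene and 4 groups per panel; points are tumors numbered by replicate, and the bar beside them is the mean ± SD (n = 4). In every panel the 4 GEM/anti-CD40 tumors lie above the 4 anti-CD40 tumors, and control replicate 2 is the highest tumor not given GEM in Gzmc (6.91), Gzmd (8.82), Gzmf (8.26) and Gzmg (8.36).

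The 8 tumors without anti-CD40 Ab share no array with this comparison and give the same genes on another background. GEM replicates 3 and 4 of that set carry the same animal number in their titles and may come from 1 mouse. Skin genes stood apart in control replicate 2, where the list's mean was 8.19, against 4.81 to 5.10 in the other control tumors. In GEM replicate 4 the means of the skin and muscle lists were 5.92 and 7.49, against 4.95 to 5.11 and 4.85 to 5.49 in the other GEM tumors. The part of these arrays in GEM minus control was not tested. Gzmc was at 7.44, 7.80, 7.53 and 7.71 in GEM tumors, against 5.72, 6.91, 5.60 and 5.00 in control tumors. Over all 16 tumors, Gzmc thus lay at 7.44 to 8.80 in the 8 given GEM and at 5.00 to 6.91 in the 8 not given it, with no overlap. GEM minus control was 1.81 for Gzmc, 2.22 for Gzmd, 1.63 for Gzmf and 2.61 for Gzmg.

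For Gzmd, Gzmf and Gzmg, control replicate 2, the array with skin genes (8.82, 8.26 and 8.36), lay within the range of the tumors given GEM. The lowest of the 8 tumors given GEM had 8.59 for Gzmd, 7.69 for Gzmf and 8.21 for Gzmg, against highest values of 7.82, 7.33 and 7.37 in the other 7 tumors without GEM. The interaction, which is the GEM difference with anti-CD40 Ab minus that without, was 0.34 for Gzmc, 0.13 for Gzmd, 0.47 for Gzmf and -0.29 for Gzmg, and none passed (adjusted p of 0.94 to 0.99, limma). When the GEM difference was averaged over both backgrounds in 1 fit of the 16 arrays, a contrast chosen after the values were seen, 1 of 45037 probe sets passed (0.00222%). It was Gzmc, at 1.98 with an adjusted p of 0.0392 (limma), higher on each of the 8 arrays given GEM than on any of the 8 not given it. With the 2 GEM arrays of the shared animal number averaged into 1, the adjusted p was 0.146 and 0 probe sets passed, at the same difference of 1.98 (limma). With all other arrays kept, the call held when GEM/anti-CD40 replicate 4, anti-CD40 replicate 3 or control replicate 2 was left out (adjusted p of 0.0392, 0.0276 and 0.00153, limma). Leaving out any of the other 13 arrays ended it, with adjusted p between 0.0698 and 0.159 and a difference still between 1.85 and 2.04 (limma).

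Other genes of cytotoxic cells differed less evenly, some upwards and some not at all or downwards. Gzma, a tryptase-like granzyme, had 8.04, 7.02, 6.18 and 5.69 in GEM/anti-CD40 tumors, against 5.35, 5.60, 4.79 and 6.04 in anti-CD40 tumors (1.29 ± 0.47, and 0.85 without GEM/anti-CD40 replicate 1). Gzmb, the main apoptosis-inducing granzyme, had 9.44, 8.64, 7.81 and 7.57 in GEM/anti-CD40 tumors, against 6.82, 7.50, 6.70 and 8.61 in anti-CD40 tumors (0.96 ± 0.50, and 0.60 without that replicate). Ifng, the cytokine of activated T and NK cells, had 8.39, 6.41, 4.92 and 5.08 in GEM/anti-CD40 tumors, against 4.77, 5.53, 4.87 and 5.36 in anti-CD40 tumors (1.07 ± 0.67, and 0.34 without it). All 3 were highest in GEM/anti-CD40 tumor 1, and the groups overlapped. Of further members chosen after their values were seen, Gzmk differed by -0.55 ± 0.40, Gzmm by 0.05 ± 0.07 and perforin (Prf1), which lets granzymes into the target cell, by -0.01 ± 0.08 on its brightest probe set and 0.59 ± 0.23 on a dimmer one, all with overlap. Of the 17 measured genes of the cytotoxic and NK cell list, 13 were above 0, and 3 (Gzmc, Gzmd and Gzmf) had groups that did not overlap, against 1.31% of all genes. Since these 3 are best read as 1 family signal, they do not count as 3 separate members against that share. The median of the list was 0.59, or 0.34 without replicate 1, against 0.01 over all genes.

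Most immune gene lists were above the median of all genes, and most of them were highest in the same tumor. GEM/anti-CD40 tumor 1 was the highest and tumor 3 or 4 the lowest of its group on the means of the macrophage, neutrophil, interferon gamma and MHC class II lists. Medians of the immune lists are therefore given with and without replicate 1. No member of any of the 40 lists passed the adjusted test.

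**Figure D2:**
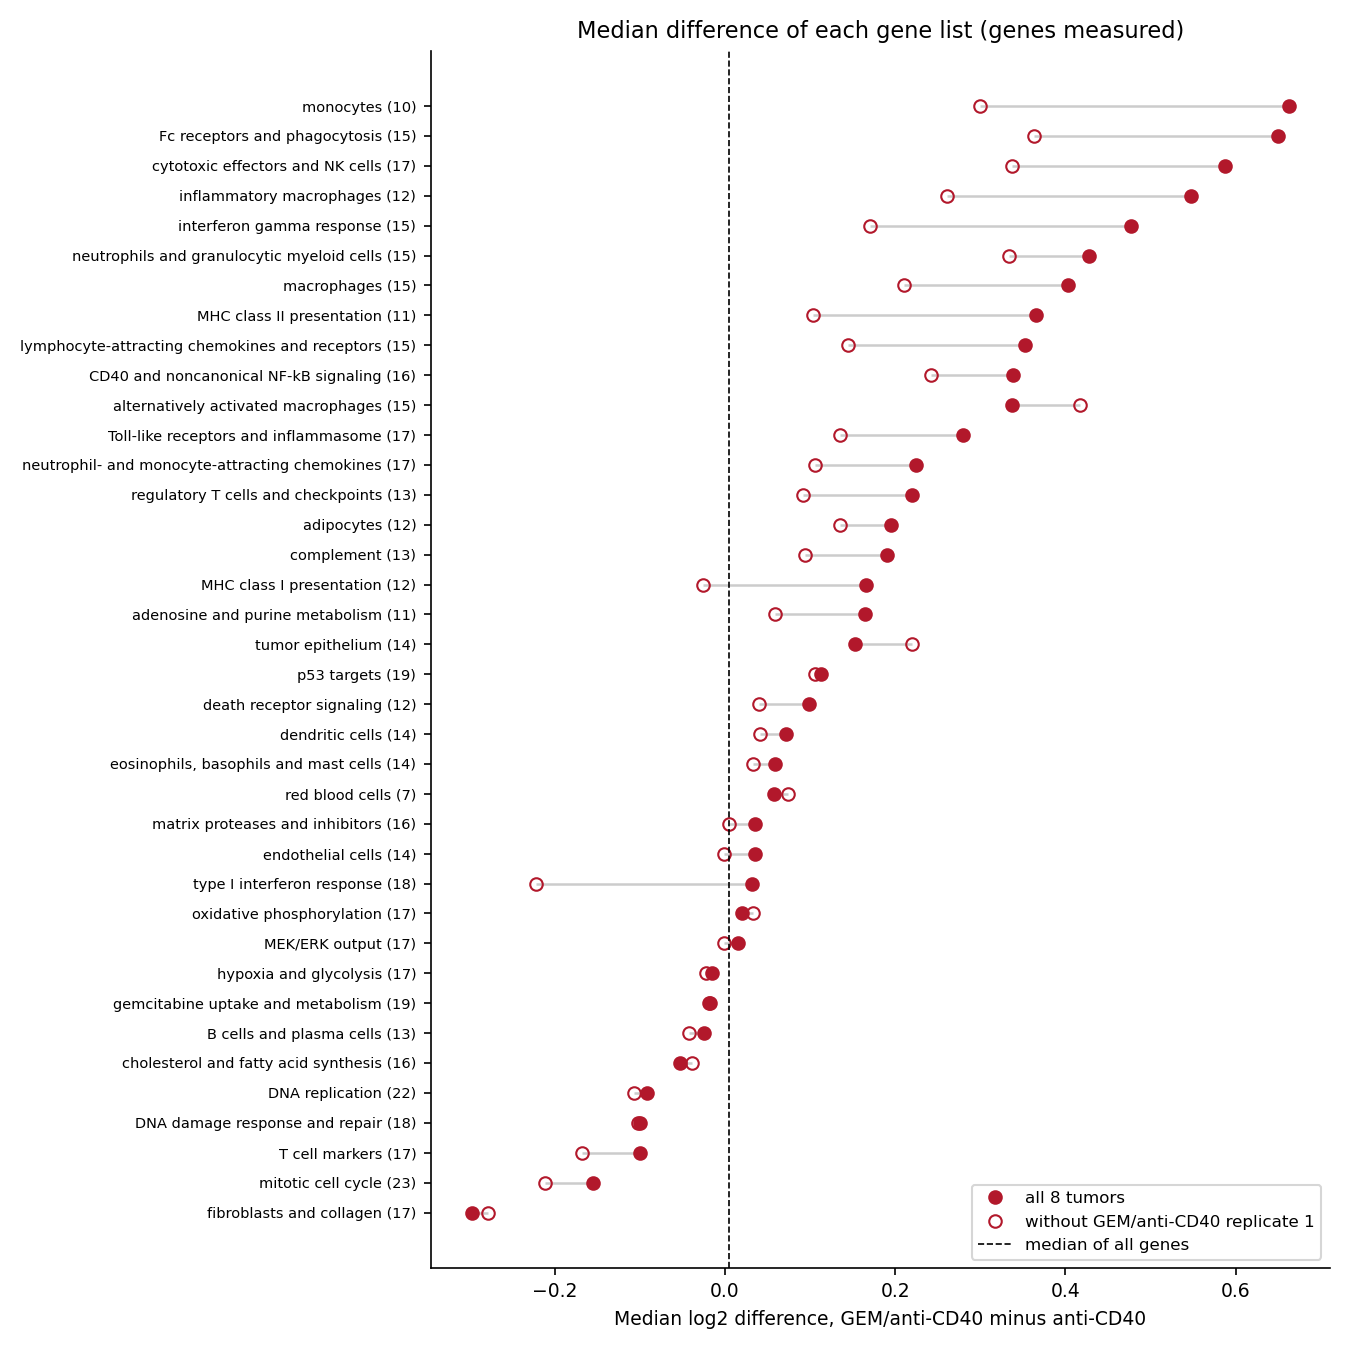
Median log2 difference, GEM/anti-CD40 minus anti-CD40, of 38 gene lists, with the number of measured genes in parentheses; filled points use all 8 tumors, open points leave out GEM/anti-CD40 replicate 1, and the dashed line is the median of all genes. Myeloid lists lie to the right (monocytes 0.66, Fc receptors and phagocytosis 0.65) and fibroblasts and collagen to the left at -0.30; the skeletal muscle and skin lists are not drawn.

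Among the chemokines, the CC chemokines Ccl9 and Ccl6, which attract myeloid cells in mice, had the most separate values. Ccl9 had 9.95, 9.82, 9.48 and 9.72 in GEM/anti-CD40 tumors, against 8.62, 8.31, 9.08 and 8.95 in anti-CD40 tumors (1.00 ± 0.17, 95% interval 0.62 to 1.39, a 2.00-fold higher mean). Ccl6 had 10.93, 10.82, 10.64 and 10.70 in GEM/anti-CD40 tumors, against 9.81, 9.49, 10.44 and 10.10 in anti-CD40 tumors (0.81 ± 0.18). Neither gene overlapped between the groups, the GEM/anti-CD40 tumors varied less than the anti-CD40 tumors, and a second probe set gave 0.93 for Ccl9 and 0.89 for Ccl6. Without anti-CD40 Ab, GEM minus control was 0.61 for Ccl9 and 0.49 for Ccl6.

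Cxcl3, a ligand of the neutrophil receptor Cxcr2, had 8.97, 9.05, 8.90 and 8.31 in GEM/anti-CD40 tumors, against 7.45, 8.41, 8.34 and 8.06 in anti-CD40 tumors (0.74 ± 0.23). Here GEM/anti-CD40 tumor 4 lay among the anti-CD40 tumors, while without anti-CD40 Ab the GEM tumors (7.64 to 8.19) all lay above the control tumors (6.92 to 7.17). All 17 measured genes of the list of neutrophil- and monocyte-attracting chemokines and growth factors were above 0, at a median of 0.23, or 13 of 17 at 0.11 without replicate 1. In 2 of the 17, Ccl9 and Ccl6, the groups did not overlap.

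Granule genes of immature neutrophils were higher at low intensity. Camp, which encodes the antimicrobial peptide cathelicidin, had 5.34, 5.37, 5.11 and 5.05 in GEM/anti-CD40 tumors, against 4.55, 4.61, 4.58 and 4.68 in anti-CD40 tumors (0.61 ± 0.09, 95% interval 0.42 to 0.81). Ngp, the neutrophilic granule protein, had 6.70, 6.26, 5.66 and 5.05 in GEM/anti-CD40 tumors, against 4.93, 4.59, 4.68 and 4.54 in anti-CD40 tumors (1.23 ± 0.31). Neither gene overlapped, but both lay near the median of the 8 arrays, which was 5.63, and for Ngp GEM/anti-CD40 tumor 4 lay just above the highest anti-CD40 tumor. Without anti-CD40 Ab, GEM minus control was 0.02 for Camp and 0.14 for Ngp.

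S100a8 and S100a9 encode the calprotectin subunits of neutrophils and monocytes. S100a8 had 10.75, 10.77, 10.30 and 9.84 in GEM/anti-CD40 tumors, against 9.57, 10.36, 8.70 and 9.64 in anti-CD40 tumors (0.85 ± 0.33). S100a9 had 10.77, 10.74, 10.07 and 9.87 in GEM/anti-CD40 tumors, against 9.47, 9.97, 8.81 and 9.53 in anti-CD40 tumors (0.92 ± 0.28). In both, anti-CD40 tumor 2 reached into the GEM/anti-CD40 range. The decoy receptor Il1r2 differed by 0.52 and the gelatinase Mmp9 by 0.56, both with overlap, and the neutrophil chemokine receptor Cxcr2 (chosen after its values were seen) by 0.04. All 15 measured genes of the neutrophil list were above 0, at a median of 0.43, or 13 of 15 at 0.33 without replicate 1, and 2 of them, Camp and Ngp, did not overlap. Ly6g and Retnlg had no probe set with a single gene symbol.

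**Figure D3:**
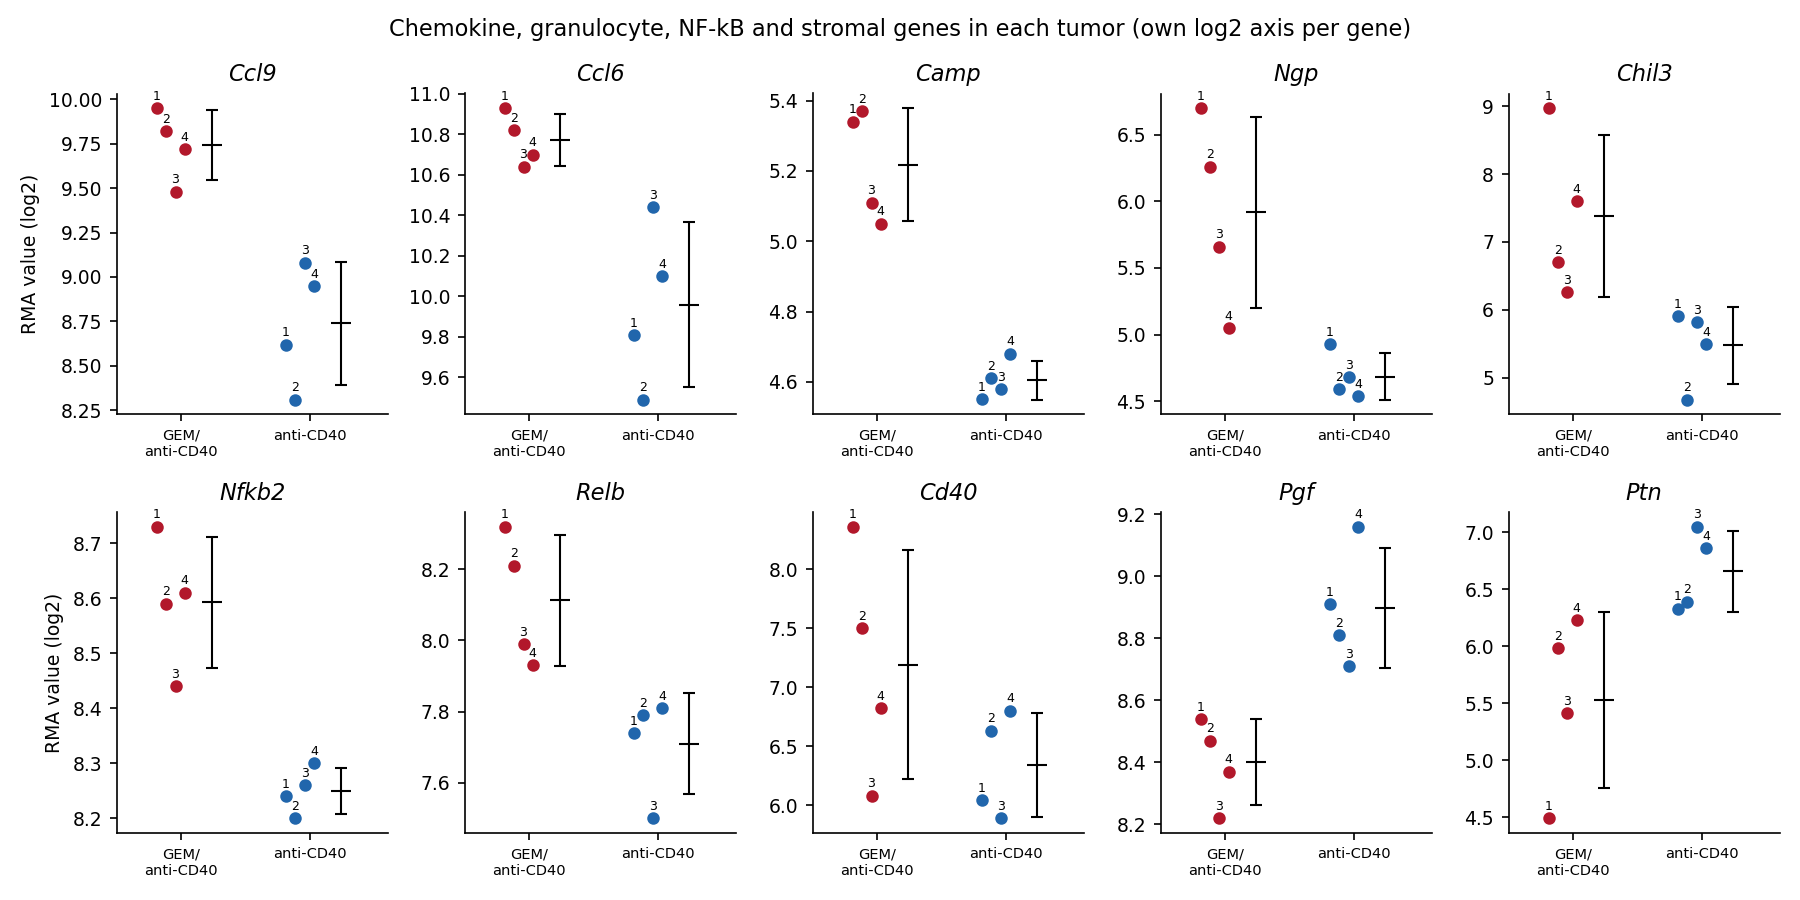
RMA values (log2, own axis per gene) of 10 genes in GEM/anti-CD40 tumors (left) and anti-CD40 tumors (right); points are tumors numbered by replicate, and the bar is the mean ± SD (n = 4). Ccl9, Ccl6, Camp, Ngp, Chil3, Nfkb2 and Relb show the GEM/anti-CD40 tumors above all anti-CD40 tumors, Pgf and Ptn show them below, and Cd40 overlaps because only tumors 1, 2 and 4 of the GEM/anti-CD40 group exceed the anti-CD40 maximum of 6.80.

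Macrophage genes were higher by small amounts. All 15 measured genes of the macrophage list were above 0, at a median of 0.40, or 15 of 15 at 0.21 without replicate 1. Lysozyme (Lyz2) had 13.49, 13.19, 12.61 and 12.76 in GEM/anti-CD40 tumors, against 12.31, 12.13, 12.41 and 12.80 in anti-CD40 tumors (0.60 ± 0.21), so that anti-CD40 tumor 4 lay among the GEM/anti-CD40 tumors. The lysosomal proteases Lgmn (0.25 ± 0.07) and Ctsd (0.24 ± 0.09) were the 2 members without overlap. Further genes without overlap were Dcstamp, a fusion protein of osteoclasts and macrophages (0.79 ± 0.18), Ltc4s, which makes leukotriene C4 (0.50 ± 0.09), the lysosomal Pld3 (0.35 ± 0.07) and Mfsd12 (0.32 ± 0.07), and the glycolytic regulator Pfkfb3 (0.43 ± 0.10). The elastase Mmp12 differed by 0.65 ± 0.18 with overlap.

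Chil3 (Ym1), a marker of alternatively activated mouse macrophages and of some monocytes, had 8.97, 6.70, 6.26 and 7.60 in GEM/anti-CD40 tumors, against 5.91, 4.68, 5.82 and 5.50 in anti-CD40 tumors (1.91 ± 0.54). The groups did not overlap, the GEM/anti-CD40 tumors spread over nearly 3 log2 units, and the difference was 1.38 without replicate 1. In the absence of anti-CD40 Ab, GEM minus control was 0.00 for Chil3. On the list of alternatively activated macrophages 14 of 15 genes were above 0, at a median of 0.34 (0.42 without replicate 1, 0.20 without the arrays that held muscle or skin genes), and 3 did not overlap: Chil3, the interleukin-4 receptor chain Il4ra (0.21 ± 0.07) and Retnla, which was chosen after its values were seen (0.55). Clec7a, the beta-glucan receptor dectin-1, differed by 0.90 ± 0.24, and the arginine-degrading Arg1 by 0.49 ± 0.27, both with overlap. Nos2, the arginine-using enzyme of inflammatory macrophages, differed by 0.26 ± 0.21.

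Large differences of inflammatory genes rested on 1 or 2 tumors. Fpr2, a formyl peptide receptor, had 11.38, 9.52, 7.64 and 8.31 in GEM/anti-CD40 tumors, against 7.20, 7.35, 7.47 and 8.26 in anti-CD40 tumors (1.64 ± 0.70, and 0.92 without replicate 1). Il6 had 8.15, 5.20, 4.81 and 5.79 in GEM/anti-CD40 tumors, against 4.01, 4.34, 5.01 and 4.43 in anti-CD40 tumors (1.54 ± 0.63, and 0.82 without replicate 1). The long pentraxin Ptx3 had 9.35, 6.37, 5.86 and 8.96 in GEM/anti-CD40 tumors, against 5.41, 4.90, 5.88 and 5.98 in anti-CD40 tumors (2.09 ± 0.75, and 1.06 as the mean of its probe sets). For Ptx3 tumors 1 and 4 stood out, for Fpr2 tumors 1 and 2, and for Il6 tumor 1. Tnf differed by less but without overlap, with 6.73, 6.49, 6.24 and 6.23 in GEM/anti-CD40 tumors, against 6.10, 6.10, 5.97 and 5.89 in anti-CD40 tumors (0.41 ± 0.12). On the list of inflammatory macrophages 10 of 12 genes were above 0 at a median of 0.55, which was 0.26 without replicate 1.

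Ncf1, a subunit of the phagocyte NADPH oxidase, had 10.12, 9.54, 8.69 and 9.16 in GEM/anti-CD40 tumors, against 8.36, 8.50, 8.35 and 8.64 in anti-CD40 tumors (0.92 ± 0.26) and GEM/anti-CD40 tumor 3 lay just above the highest anti-CD40 tumor. It was the 1 member without overlap on the list of Fc receptors and phagocytosis, of which 14 of 15 were above 0 at a median of 0.65 (0.36 without replicate 1). Monocyte genes were above 0 in 9 of 10 (0.66, or 0.30 without replicate 1 and 0.20 without the arrays that held muscle or skin genes), Toll-like receptor and inflammasome genes in 17 of 17 (0.28, or 0.14) and complement genes in 10 of 13 (0.19, or 0.09).

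Genes of the CD40 pathway itself were among those with separate groups. Nfkb2, which encodes the p100 precursor of the noncanonical NF-kB subunit p52, had 8.73, 8.59, 8.44 and 8.61 in GEM/anti-CD40 tumors, against 8.24, 8.20, 8.26 and 8.30 in anti-CD40 tumors (0.34 ± 0.07, 95% interval 0.18 to 0.51). Relb, the partner of p52, had 8.32, 8.21, 7.99 and 7.93 in GEM/anti-CD40 tumors, against 7.74, 7.79, 7.50 and 7.81 in anti-CD40 tumors (0.40 ± 0.11). Neither overlapped, although a second, dimmer probe set of Nfkb2 with cross-hybridizing probes gave 0.07. Without anti-CD40 Ab, GEM minus control was -0.05 for Nfkb2 and 0.02 for Relb.

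Cd40, the target of the Ab, had 8.36, 7.50, 6.08 and 6.82 in GEM/anti-CD40 tumors, against 6.04, 6.63, 5.89 and 6.80 in anti-CD40 tumors (0.85 ± 0.44, 95% interval -0.14 to 1.84, and 0.46 without replicate 1). Tumor 3 lay within the anti-CD40 group and tumor 4 at its upper end. The maturation marker Cd83 differed by 0.86 ± 0.23, and Tnfaip3 (A20), an NF-kB-induced inhibitor of NF-kB, by 0.34 ± 0.10, both with overlap. For Cd83 the anti-CD40 tumors were the low group. Their mean was 6.355, against 7.215 in GEM/anti-CD40, 7.26 in GEM and 7.355 in control tumors. Ccl22, a chemokine of mature dendritic cells, had 8.73, 8.74, 7.19 and 8.35 in GEM/anti-CD40 tumors, against 5.99, 7.79, 6.91 and 6.70 in anti-CD40 tumors (1.41 ± 0.43), with tumor 3 below the highest anti-CD40 tumor. The dendritic cell list as a whole was split, with 7 of its 14 measured genes above 0 and 7 below, at a median of 0.07 (8 of 14 at 0.04 without replicate 1), and 0 did not overlap. Of the 16 measured genes of the CD40 and noncanonical NF-kB list, 15 were above 0 at a median of 0.34 (15 of 16 at 0.24 without replicate 1), and 3 did not overlap: Nfkb2, Relb and the adaptor Traf2 (chosen after its values were seen, 0.17). In GEM minus control, 7 of the 16 were above 0 at a median of -0.02.

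The promoter of Nfkb2 is printed because NF-kB proteins are known to bind promoters of their own subunits, and capitals mark stretches that match the NF-kB consensus on either strand.
Nfkb2, chr19:46304487-46304786, plus strand: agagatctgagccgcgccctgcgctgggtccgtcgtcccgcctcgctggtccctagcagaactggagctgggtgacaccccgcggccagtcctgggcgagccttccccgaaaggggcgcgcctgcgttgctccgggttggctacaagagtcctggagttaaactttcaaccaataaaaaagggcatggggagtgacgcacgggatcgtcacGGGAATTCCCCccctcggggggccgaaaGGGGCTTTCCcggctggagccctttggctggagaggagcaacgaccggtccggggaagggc
A match to this consensus stood in 7 of the 17 RefSeq promoter windows of 13 genes of the list (41.2%) and in 8.46% of all 32851 windows. Several of the 7 windows belong to Nfkb2. Counted by gene, the match stood in 5 of 13 (38.5%), against 9.55% of all genes in the promoter table. It was not particular to this list. The same match stood in 4 of 11 genes of the interferon gamma list (36.4%) and 3 of 14 of the type I interferon list (21.4%).

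Ligands and receptors of T cell control were read as well. Cd274 (PD-L1), which is induced by interferon, differed by 0.88 ± 0.41 with overlap, and by 0.44 without replicate 1. Its fellow PD-1 ligand Pdcd1lg2 differed by 0.67 ± 0.24 and the costimulatory receptor Tnfrsf9 (4-1BB) by 0.32 ± 0.09. Of the 13 measured genes of the regulatory T cell and checkpoint list, 10 were above 0 at a median of 0.22, or 8 at 0.09 without replicate 1.

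Interferon-responsive genes varied mainly between tumors within the GEM/anti-CD40 group. The mean of the 15 measured genes of the interferon gamma list was 11.13, 10.57, 9.54 and 9.80 in GEM/anti-CD40 tumors, against 9.78, 9.74, 9.48 and 10.12 in anti-CD40 tumors. Tumors 1 and 2 were above, and tumors 3 and 4 within, the anti-CD40 range. All 15 genes were above 0 at a median of 0.48 (11 of 15 at 0.17 without replicate 1), and in 0 of them were the groups apart. Without anti-CD40 Ab, 0 of the 15 were above 0 and the median was -0.59, which gave a median interaction of 1.06 over the list. There the list's mean was 7.67, 9.21, 8.12 and 8.04 in GEM tumors, against 9.49, 7.87, 8.27 and 9.79 in control tumors. Control tumors 1 and 4 were thus the highest, and the groups overlapped. The CXCR3 ligand Cxcl9 averaged 11.86 ± 1.01 in GEM/anti-CD40 tumors and 11.17 ± 0.60 in anti-CD40 tumors (SD, n = 4 each, difference 0.70 ± 0.48), with GEM/anti-CD40 tumors 1 and 2 above and tumors 3 and 4 within the anti-CD40 range. The transcription factors Irf8 (0.94 ± 0.35) and Irf1 (0.48 ± 0.22) and the feedback inhibitor Socs1 (0.71 ± 0.34) were likewise highest in tumor 1, and all overlapped.

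Type I interferon genes were above 0 in 11 of 18 at a median of 0.03, which turned to -0.22 with 3 of 18 above 0 without replicate 1, and was -0.02 and -0.07 when anti-CD40 tumors 1 and 2 were left out in turn. MHC class I genes, among them the peptide transporter Tap1 (0.39 ± 0.33), were above 0 in 11 of 12 at 0.17, and in 5 of 12 at -0.03 without replicate 1. MHC class II genes, among them the thiol reductase Ifi30 (0.41 ± 0.18), were above 0 in 11 of 11 at 0.37, and in 8 of 11 at 0.10 without replicate 1. In none of these 3 lists was there a member without overlap. In GEM minus control the medians were -0.39 for type I interferon, -0.33 for MHC class I and -0.51 for MHC class II, each with 0 members above 0. On all of these lists control tumors 1 and 4 had the highest means. For MHC class II the control tumors had 9.34, 8.56, 8.45 and 9.42, against 8.24 to 8.77 in GEM tumors. For type I interferon they had 7.92, 7.29, 7.12 and 7.88, against 6.94 to 7.26. For MHC class I, control tumors 2 and 3 (9.42 and 9.61) also lay among the GEM tumors. In the RefSeq promoters, GAAANNGAAA (an interferon-stimulated response element, on either strand) was found in 8 of 14 windows of the interferon gamma list (57.1%) and 8 of 15 of the type I list (53.3%), against 3.44% of all windows. TTCNNNGAA (a STAT element, which reads alike on both strands) was found in 5 of 14 (35.7%) and 2 of 15 (13.3%), against 8.3%.

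**Figure D4:**
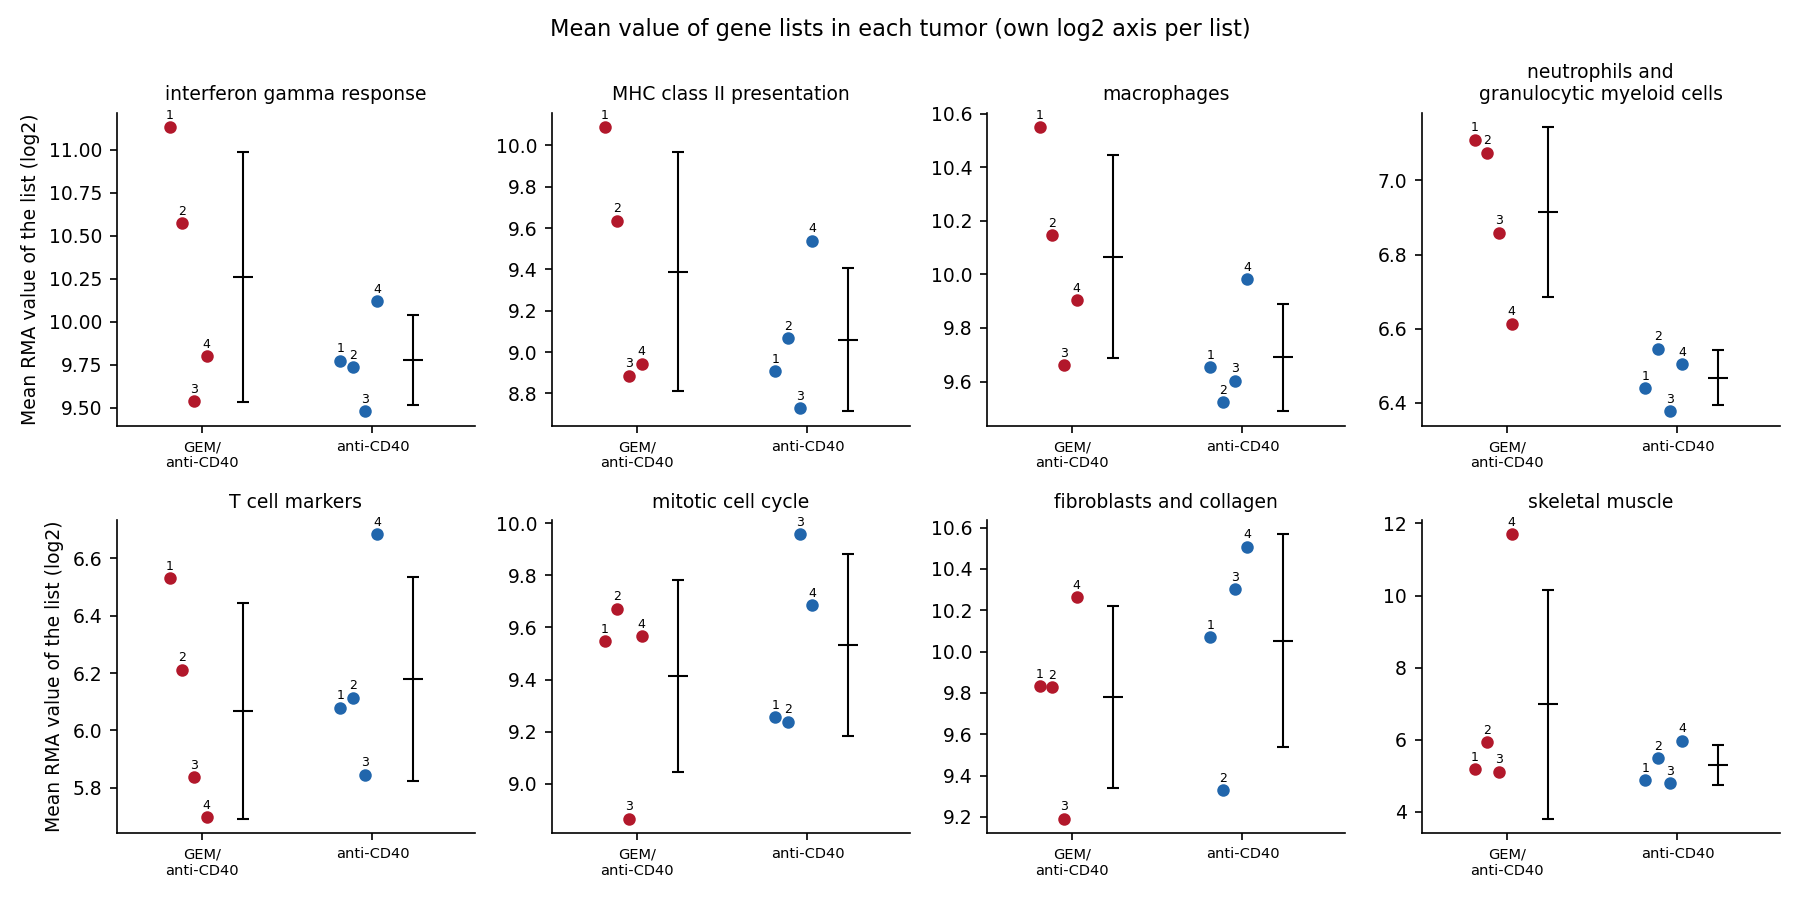
Mean RMA value (log2, own axis per list) of 8 gene lists in each GEM/anti-CD40 tumor (left) and anti-CD40 tumor (right); points are tumors numbered by replicate, and the bar is the mean ± SD (n = 4). GEM/anti-CD40 tumors 1 and 2 lead the interferon gamma, MHC class II, macrophage and neutrophil lists, tumor 3 is low for the mitotic and fibroblast lists (8.87 and 9.19), and tumor 4 holds the muscle genes (11.69).

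T cell genes were not higher. The mean of the 17 measured T cell markers was 6.53, 6.21, 5.84 and 5.70 in GEM/anti-CD40 tumors, against 6.08, 6.11, 5.85 and 6.68 in anti-CD40 tumors. GEM/anti-CD40 tumor 4, the one with muscle genes, was the lowest and anti-CD40 tumor 4 the highest of the 8. Of the 17 genes, 4 were above 0 and 13 below, at a median of -0.10, which was -0.17 with 0 of 17 above 0 without GEM/anti-CD40 replicate 1 and turned to 0.05 without anti-CD40 replicate 4. The CD8 chain Cd8b1 had 7.04, 5.74, 5.01 and 4.30 in GEM/anti-CD40 tumors, against 5.98, 6.41, 4.58 and 7.35 in anti-CD40 tumors (-0.56 ± 0.67). With 1 of the 8 arrays left out, Cd8b1 ranged from -1.06 to -0.13 and the CD3 chain Cd3d from -0.57 to -0.02. The CD3 chains Cd3d (-0.29 ± 0.38) and Cd3g (-0.33 ± 0.44) had intervals from below -1 to above 0.5, and Cd3g turned to 0.05 without GEM/anti-CD40 replicate 4. Without anti-CD40 Ab, GEM minus control was -0.96 for Cd3d and -1.39 for Cd3g. B cell and plasma cell genes were above 0 in 5 of 13, at a median of -0.03, or 4 of 13 at -0.04 without replicate 1.

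Proliferation genes were slightly lower on the median, and this rested on single tumors. Of 23 measured mitotic genes 3 were above 0 and 20 below, at a median of -0.16. The list's mean was 9.55, 9.67, 8.87 and 9.57 in GEM/anti-CD40 tumors, against 9.26, 9.24, 9.96 and 9.69 in anti-CD40 tumors. GEM/anti-CD40 tumor 3 was the lowest and anti-CD40 tumor 3 the highest of the 8, and the median turned to 0.03 when either was left out. Examples were the spindle checkpoint kinase Bub1 (-0.28 ± 0.27) and Aurkb (-0.21 ± 0.17). DNA replication genes were above 0 in 5 of 22 at a median of -0.09, with the helicase subunit Mcm3 at -0.19 ± 0.11, and turned to 0.01 without GEM/anti-CD40 replicate 3. In GEM minus control, 22 of 23 mitotic and 20 of 22 replication genes were above 0, at medians of 0.17 and 0.09.

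Genes of DNA damage response and repair were above 0 in 3 of 18 and below in 15, at a median of -0.10, and 2 did not overlap in the lower direction, against 0.956% of all genes. Parp1, the poly(ADP-ribose) polymerase that senses strand breaks, had 9.44, 9.54, 9.59 and 9.53 in GEM/anti-CD40 tumors, against 9.77, 9.62, 9.82 and 9.66 in anti-CD40 tumors (-0.19 ± 0.07). The mismatch repair gene Msh6 had 9.66, 9.68, 9.61 and 9.69 in GEM/anti-CD40 tumors, against 9.75, 9.93, 9.71 and 9.82 in anti-CD40 tumors (-0.14 ± 0.07). For both genes the nearest tumors of the groups almost met. Targets of p53 were above 0 in 16 of 19 at a median of 0.11, with 0 that did not overlap. The cell cycle inhibitor Cdkn1a (p21) had 10.17, 9.63, 9.39 and 9.57 in GEM/anti-CD40 tumors, against 9.16, 9.21, 9.31 and 9.64 in anti-CD40 tumors (0.36 ± 0.17), and the death receptor Fas differed by 0.39 ± 0.21. In GEM minus control, Cdkn1a differed by -0.33 and Fas by -0.31.

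Genes that carry, activate or degrade GEM were close to equal. Of 19 measured members 8 were above 0 and 11 below, at a median of -0.02, and the 95% interval lay within 1 log2 unit of 0 for 18 and within 0.5 for 17. Among these 17, Slc28a3 (means of 3.69 and 3.78) and Tyms (4.415 and 4.46) were dim, below the array median of 5.63. The nucleoside transporter Slc29a1 (ENT1) differed by 0.06 ± 0.10, the activating kinase Dck by -0.22 ± 0.14 and the inactivating deaminase Cda by -0.01 ± 0.16 (95% interval -0.37 to 0.36). The ribonucleotide reductase subunits differed by -0.07 ± 0.12 (Rrm1), -0.20 ± 0.13 (Rrm2) and -0.17 ± 0.09 (Rrm2b). The dNTP hydrolase Samhd1, which is abundant in myeloid cells, had the interval that reached furthest (0.43 ± 0.30, and 0.12 without replicate 1). The efflux pump Abcc4 was the 1 member without overlap, with 11.36, 11.39, 11.32 and 11.35 in GEM/anti-CD40 tumors, against 11.45, 11.57, 11.42 and 11.41 in anti-CD40 tumors (-0.11 ± 0.06). Of the purine enzymes, Ada (adenosine deaminase) differed by 0.17 ± 0.12, where GEM minus control was 0.54, and Pnp by 0.29 ± 0.10. The purine and adenosine list was above 0 in 9 of 11 at a median of 0.17, or 7 of 11 at 0.06 without replicate 1.

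In the lower direction fewer genes differed by over 1 on the log2 scale (5 against 99 higher). Without the arrays that held muscle or skin genes the counts were 14 lower and 52 higher. Over probe sets, more were lower than higher at an unadjusted p under 0.05. Pgf, the placental growth factor of the VEGF family, had 8.54, 8.47, 8.22 and 8.37 in GEM/anti-CD40 tumors, against 8.91, 8.81, 8.71 and 9.16 in anti-CD40 tumors (-0.50 ± 0.11, 95% interval -0.74 to -0.25), without overlap. In GEM minus control it differed by -0.69, where GEM tumors lay at 6.93 to 7.79 and control tumors at 7.14 to 9.17. Ptn, the heparin-binding growth factor pleiotrophin, had 4.49, 5.98, 5.41 and 6.23 in GEM/anti-CD40 tumors, against 6.33, 6.39, 7.05 and 6.86 in anti-CD40 tumors (-1.13 ± 0.35, and -0.56 as the mean of its probe sets). GEM/anti-CD40 tumor 1 was far below the rest, and GEM/anti-CD40 tumor 4 lay just below anti-CD40 tumor 1. Sertad4, which lay near the array median, differed by -0.74 ± 0.19 without overlap.

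Crabp1, a retinoic acid-binding protein (-1.12 ± 0.48), the small leucine-rich matrix protein Aspn (-0.87 ± 0.38) and the imprinted Peg3 (-0.64 ± 0.28) differed with overlap. Of 17 measured fibroblast and collagen genes 16 were below 0, at a median of -0.30 (17 of 17 at -0.28 without GEM/anti-CD40 replicate 1), but 0 did not overlap. The list's mean was 9.83, 9.83, 9.19 and 10.26 in GEM/anti-CD40 tumors, against 10.07, 9.33, 10.30 and 10.51 in anti-CD40 tumors, so that GEM/anti-CD40 tumor 4, the one with muscle genes, was high and anti-CD40 tumor 2, the one with skin genes, was low within its group. Their part in the list was not tested. Without both arrays the median was -0.75, without GEM/anti-CD40 replicate 3 it was -0.13, without anti-CD40 replicate 2 -0.57, without GEM/anti-CD40 replicate 4 -0.47 and without anti-CD40 replicate 3 or 4 -0.17. Periostin (Postn, -0.45 ± 0.24), lumican (Lum, -0.46 ± 0.26) and Col6a1 (-0.44 ± 0.24) were examples.

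Small differences without overlap in the lower direction were measured for Mbtps2, the site-2 protease that releases SREBP (-0.28 ± 0.08), Cstf2, a cleavage stimulation factor of polyadenylation (-0.27 ± 0.08), and Taf1, the largest subunit of TFIID (-0.22 ± 0.06). Aplp1, of the amyloid precursor family, differed by -0.29 ± 0.07, and by -0.10 on a probe set less open to cross-hybridization. Other lists lay near the median of all genes. Hypoxia and glycolysis genes were above 0 in 8 of 17, MEK/ERK output genes in 9 of 17, endothelial genes in 9 of 14, oxidative phosphorylation genes in 13 of 17 and cholesterol and fatty acid synthesis genes in 4 of 16, with medians between -0.05 and 0.04, of which the endothelial one turned to -0.27 without the arrays that held muscle or skin genes. Tumor epithelium genes were above 0 in 10 of 14 at 0.15, which turned to -0.05 without anti-CD40 replicate 3.

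The interaction over all 16 arrays asks whether the difference made by GEM is another with the Ab than without it. No probe set passed (0 of 45037, 0%, limma), the smallest adjusted p was 0.890, and 2359 (5.24%) stood at an unadjusted p under 0.05. Across the 18193 genes, the GEM difference with anti-CD40 Ab and that without correlated at r of -0.004 and rho of -0.02, as a description over genes, which are not independent. The 2 differences use separate arrays. Both carry error, and no probe set passed with the Ab, so that an r near 0 cannot tell whether the backgrounds differ.

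Of the 83 genes described, 10 had the same sign and a difference of over 0.4 in size on both backgrounds, namely Gzmc, Gzmd, Gzmf, Gzmg, Gzmb, Ccl9, Ccl6, Cxcl3, Fpr2 and Pgf. Gzmc, Gzmd, Gzmf and Gzmg are best read as 1 family signal, and the same count over all genes was not made. Other described genes were apart. Chil3 (1.91 against 0.00), Ptx3 (2.09 against -0.20), Il6 (1.54 against 0.11), Ngp (1.23 against 0.14) and Ccl22 (1.41 against 0.15) were above 1 with anti-CD40 Ab and near 0 without it, and Cd3g was at -0.33 against -1.39. None of these interactions passed (adjusted p of 0.890 or above, limma), so that a difference between the backgrounds was not shown. Many of the 83 genes were named for their p or difference with anti-CD40 Ab. That choice by itself favors larger values with the Ab than without it.

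**Figure D5:**
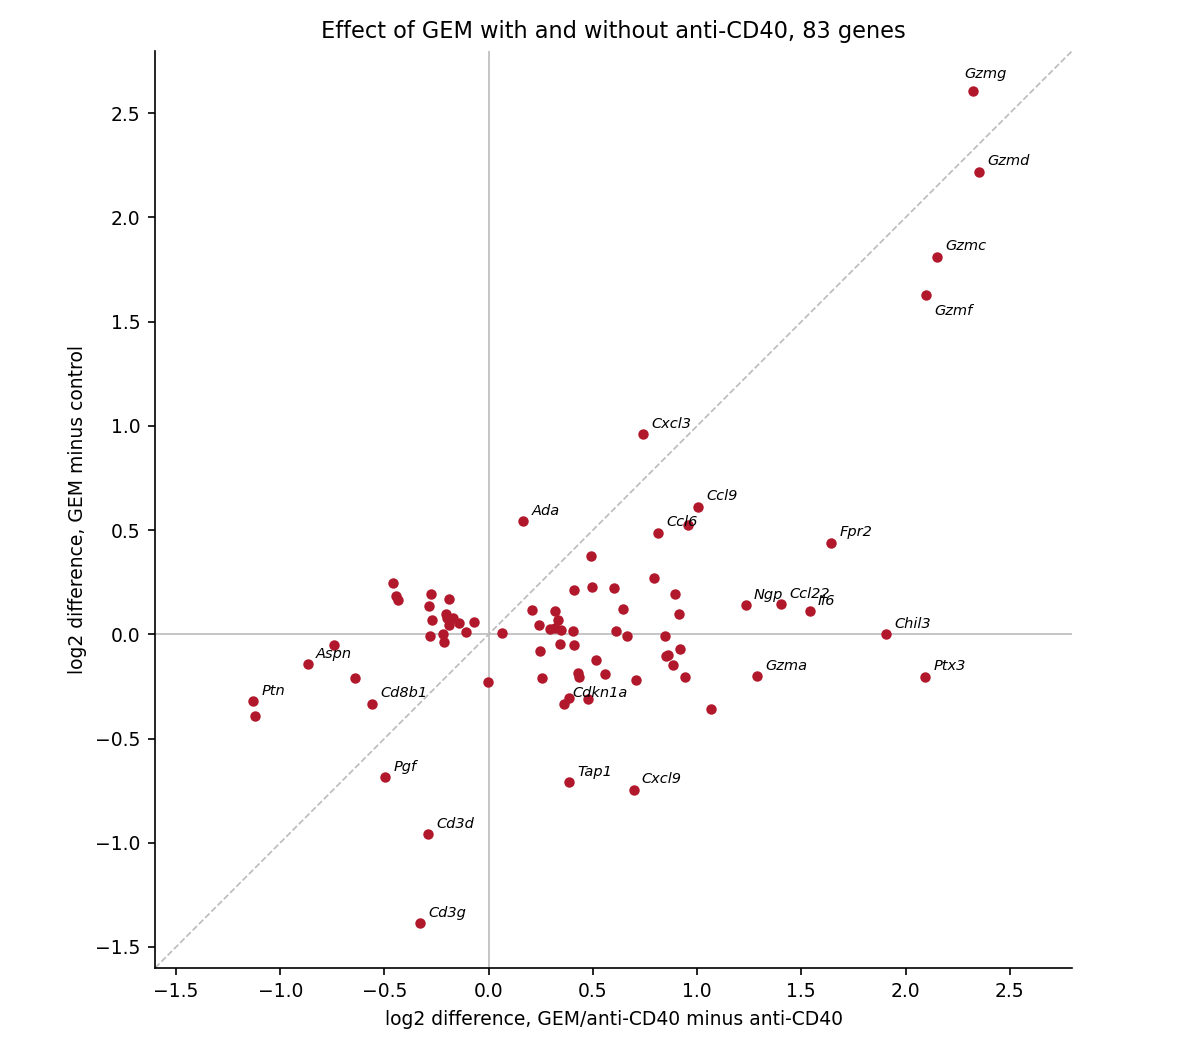
Log2 difference made by GEM for 83 named genes, with anti-CD40 Ab (x axis, GEM/anti-CD40 minus anti-CD40) and without it (y axis, GEM minus control), n = 4 tumors per group; each point is a gene, and the dashed line marks equal differences. Gzmc, Gzmd, Gzmf and Gzmg lie near the dashed line at the upper right, Chil3 and Ptx3 near 0 on the y axis, and Cd3g lowest at -1.39.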

How the data were processed

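RNA isolated from pieces of PDA30364 tumors was hybridized to Affymetrix mouse genome arrays, 1 array per sample. Background correction, normalization between arrays and summary over the probes of a probe set were done by the authors with RMA, and they deposited log2 values with 2 decimals. Which arrays entered one normalization is not given in the sources used here, nor is the software version. Normalizing across arrays takes most genes as equal, so that a shift of all RNA would not be seen.

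The 64 control probe sets of 45101 were left out. By the platform annotation 34945 probe sets had 1 gene symbol, 932 several and 9160 were not listed, and 34741 had a gene identifier in the RefSeq table. A gene was read from its probe set with the highest mean over the 16 arrays.

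The 4 GEM/anti-CD40 arrays were compared with the 4 anti-CD40 arrays with limma 3.58.1 in R 4.3.3 (lmFit and eBayes, no covariate, two-sided, Benjamini-Hochberg over 45037 probe sets). Errors are limma's standard errors, and 95% intervals use its 9.05 moderated degrees of freedom. The precision is limited by 4 arrays per group, for which an exact permutation test could give no p under 0.0286. Each array of these 2 groups carries an animal number of its own in its title, whereas GEM replicates 3 and 4 share 1. The fits were also run on simulated arrays.

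The comparison, its genes and the 40 gene lists were chosen with earlier results of these data known. Named were the 12 genes of smallest p per direction among those bright in a group and without overlap, the 5 largest differences per direction at an unadjusted p under 0.05, up to 3 genes per list, and fixed genes of GEM metabolism, granzymes, chemokines and T cells; of these 168 genes, 83 are described. Lists were described by counts and medians, without a test. Promoters were searched with Biopython 1.88. Alternatives were all 16 arrays in 1 fit, a filter on dim probe sets, a trended variance prior, array weights, 2 other scalings, other choices of probe set, a replicate block, a 2-fold criterion, arrays left out in turn, GEM replicates 3 and 4 averaged, and both arrays with muscle or skin genes left out.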

Additional observations from a re-analysis of the deposited data

Results flagged for a closer look

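In each group of 4 tumors, the highest or lowest value was set against the other 3 for the genes and lists described. Such a distance marked 10 of 246 groups, where chance alone marks about 1 in 20, or 12.3. In the GEM/anti-CD40 group, replicate 1 stood apart for Il4ra (9.33, others 9.17 to 9.19) and Peg3 (5.05, others 6.15 to 6.37). GEM/anti-CD40 replicate 2 stood apart for the mean of the cholesterol and fatty acid synthesis list (10.06, others 9.95 to 9.97), replicate 3 for the mean of the mitotic list (8.867, others 9.55 to 9.67) and replicate 4 for the mean of the skeletal muscle list (11.69, others 5.11 to 5.94). In the anti-CD40 group, replicate 2 stood apart for the mean of the skin keratinocyte list (6.395, others 4.92 to 5.09). Anti-CD40 replicate 3 was low for Lgmn (9.98, others 10.12 to 10.13), Ctsd (11.52, others 11.80 to 11.85) and Dcstamp (5.83, others 6.12 to 6.16). Anti-CD40 replicate 4 was high for Clec7a (10.59, others 9.77 to 9.88). The causes were not tested.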

How the results depend on the processing

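No probe set passed an adjusted p under 0.05 under any alternative run for the main comparison or for the interaction. The smallest adjusted p over the alternatives of the main comparison was 0.149, with all 16 arrays in 1 fit (limma), and that of the interaction was 0.399, without dim probe sets (limma). The count at an unadjusted p under 0.05 was 967 of 22521 without dim probe sets, and 1531 to 2714 when 1 array was left out, against 2072. Of 83 genes described, 79 kept their direction in all of their alternatives and 4 did not (Cda at -0.01, Rrm1 at -0.07, Slc29a1 at 0.06 and Cd3g at -0.33 with all 8 arrays). Cda was 0.023 with array weights and 0.23 without the arrays that held muscle or skin genes, and -0.10 to 0.12 with 1 array left out. Cd3g was 0.07 without the arrays that held muscle or skin genes, and -0.58 to 0.053 with 1 array left out. Rrm1 was -0.15 to 0.021 and Slc29a1 -0.0075 to 0.12 with 1 array left out. The cause was not tested. The median of the dendritic cell list was 0.54 without dim probe sets, against 0.07, where fewer genes were measured. Camp, Ngp, Nos2, Il6, Sertad4 and the red blood cell list had no value there, since their probe sets were dim. The replicate numbers do not pair the tumors (r of same-numbered deviations -0.17, -0.08, -0.20 and 0.11). With the replicate block 1614 probe sets stood at an unadjusted p under 0.05 and 0 passed, and for the interaction 2309 and 0. With 4 arrays per group the unadjusted 95% interval reached 0.20 to either side of the difference for the median gene. The adjusted test passed no gene, Gzmd at 2.35 included. That outcome alone does not tell how large a difference the adjusted test could have found.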
